A study of Mus musculus with 14 samples.

Results

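The suppressors of cytokine signaling Socs1, Socs2, Socs3, Socs5, Socs6 and Cish (the gene of the CIS protein) and the kinases Pim1 and Pim2 were followed in repeatedly activated murine Th1 (Th1 rep) cells after antagonism of miR-31. All probe sets that the array annotation assigns to 1 of these 8 gene symbols were taken, which gave 19 of the 34945 probe sets with 1 symbol on the array (45101 rows in all). Of these 19, 15 passed a filter on low values (a mean log2 intensity of at least 5 over all arrays) and were tested, together with 17590 probe sets in the whole table, and each of the 8 genes kept at least 1 probe set. The remaining 4 were dim, namely Socs2 1438470_at and 1441476_at and Socs6 1435492_at and 1452764_at. The genes lie on chromosomes 9 (Cish), 10 (Socs2), 11 (Socs3), 16 (Socs1), 17 (Pim1 and Socs5), 18 (Socs6) and X (Pim2) in GRCm38.p6.

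The arrays held RNA of T cells grown from CD4+CD62Lhi cells of OT-II mice (6 to 10 weeks old, with a transgenic T cell receptor for an ovalbumin peptide), which had been cultured under IL-12 and anti-IL-4 with antigen and irradiated antigen presenting cells and restimulated every 6 days. IL-2 was present in all but the first stimulation. Following the fourth round, the cells were kept for 1.5 h with the miR-31 inhibitor Antagomir-31 (1 µM), which is a modified antisense oligonucleotide, or the control Antagomir-SCR (1 µM). All groups were then reactivated on plate-bound anti-CD3 and anti-CD28 (3 µg/ml) with IL-12 (5 ng/ml), anti-IL-4 and IL-2 (10 ng/ml), and RNA was taken 36, 48 and 72 h after the treatment. There were 2 arrays per treatment at 36 h and at 48 h, and 3 at 72 h. Whether the replicates came from different cultures is not stated, and p-values therefore reflect the spread among these arrays alone, which may be technical. Values are intensities of single probe sets on a linear scale, and a fall in the share of a cell type cannot be told apart from less RNA per cell.

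Cytokines such as IL-2, IL-12, IL-6 and IFN-γ bind receptors without enzyme activity of their own, and the attached JAK kinases phosphorylate STAT factors, which enter the nucleus and switch on target genes. SOCS1, SOCS2, SOCS3 and CIS are among these targets and act back on the receptor. SOCS1 and SOCS3 can block JAK activity directly, whereas CIS and SOCS2 compete at receptor docking sites, and all members carry a SOCS box that recruits an Elongin and Cullin ubiquitin ligase. The PIM kinases are constitutively active serine/threonine kinases whose amount is set mainly by transcription downstream of STAT5 and STAT3, and they favour survival and protein synthesis.

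The strand that Antagomir-31 was made against is shown first, with its seed (bases 2 to 8) in capitals, followed by the other arm of the same hairpin for comparison (RefSeq, GRCm38.p6, minus strand, chr4:88910614-88910635 and chr4:88910577-88910599).
mmu-miR-31-5p: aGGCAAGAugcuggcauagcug
mmu-miR-31-3p: uGCUAUGCcaacauauugccauc
The seeds differ. None of the 8 genes (0 of 8) stood on the list of putative miR-31 targets that the study assembled.

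STAT factors bind a palindrome written TTCNNNGAA, which reads the same on both strands. RefSeq windows from 250 bases before to 50 bases after a transcript start were at hand for 5 of the 8 genes (6 windows, since Pim1 had 2), and 2 of the 6 held the letters. Among all 32851 windows 8.3% held at least 1 match and 0.457% held 2 or more. Both member windows with a match are shown with the matches in capitals.
Cish: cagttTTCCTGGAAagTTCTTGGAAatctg
Socs3: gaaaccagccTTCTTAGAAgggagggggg
The stretch of Cish is chr9:107296654-107296683 on the plus strand, and its 2 matches begin at bases 1 and 12 of the transcript. The stretch of Socs3 is chr11:117969502-117969530 on the minus strand, and its match begins at base -154 from a transcript start inside the annotated gene. No match was found in the windows of Socs1, Pim1 and Pim2. A match is a description of letters and does not show binding.

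At 72 h, the time with 3 arrays per treatment, Socs1 and 1 of the 3 Socs3 probe sets were lower with Antagomir-31. Pim2 was lower without overlap but missed the threshold (adjusted p 0.057). Cish, Socs2, Socs5, Socs6 and Pim1 gave no call. Over all probe sets tested, 152 (0.864%) were called at this time, 55 higher (0.313%) and 97 lower (0.551%), and after quantile normalization of all arrays the split was 76 higher and 74 lower. Of the 15 member probe sets 2 were lower, 0 were higher and 4 had an unadjusted p under 0.05, against 3234 of 17590 over the table. The median log2 difference of the members was -0.047, against -0.013 over all probe sets tested.

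SOCS1, the strongest inhibitor of JAK kinases in the family and a brake on IFN-γ and IL-2 signals, had 1 probe set (1450446_a_at). Its intensity at 72 h was 442, 445 and 422 with Antagomir-SCR and 329, 321 and 371 with Antagomir-31. All 3 arrays with Antagomir-31 were below all 3 controls, and the highest of them was replicate 4. The means were 436 ± 12.3 and 340 ± 26.8 (SD, n = 3 each). On the log2 scale Socs1 fell by 0.36 (SE 0.071, 95% interval -0.51 to -0.21), a value 22.1% lower, with an adjusted p of 0.045 in limma. The call was lost (adjusted p 0.17, 0.15, 0.095, 0.12 and 0.074) without Antagomir-31 72h replicate 2 or 3 or Antagomir-SCR 72h replicate 2, 3 or 4, and without Antagomir-31 72h replicate 4 the adjusted p was 0.012. It was also lost when an Antagomir-SCR 36h array (0.062) or an Antagomir-31 48h array (0.055), which add only to the shared spread, was left out, and with median centring (0.052), no filter (0.12), the 72 h arrays alone (0.11) and the replicate number as a block (0.098).

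SOCS3, which restrains signals of IL-6 family receptors, IL-12 and leptin at the receptor chain, was read by 3 probe sets that did not give the same answer. For 1416576_at the intensities at 72 h were 186, 175 and 175 with Antagomir-SCR and 134, 142 and 141 with Antagomir-31, with no overlap between the treatments. The means were 179 ± 6.79 and 139 ± 4.28 (SD, n = 3 each). The log2 value fell by 0.37 (SE 0.054, 95% interval -0.48 to -0.25), which is 1.29-fold lower, with an adjusted p of 0.020 in limma. The other two, 1455899_x_at and 1456212_x_at, have a suffix that marks probes able to bind other transcripts too. For 1455899_x_at the values were 302, 309 and 307 with Antagomir-SCR and 316, 298 and 309 with Antagomir-31, and the treatments overlapped (log2 difference 0.0081, 95% interval -0.13 to 0.14). The values of 1456212_x_at overlapped likewise (191 ± 4.62 and 194 ± 16.6, log2 difference 0.016, 95% interval -0.13 to 0.17). Both x_at intervals exclude the size seen for 1416576_at, so no single direction can be given for the Socs3 gene at 72 h. The call of 1416576_at was lost without Antagomir-31 72h replicate 2 or 3 (adjusted p 0.12 and 0.069) or Antagomir-SCR 72h replicate 2 or 3 (0.057 and 0.076), and also with no filter (0.075), with the 72 h arrays alone (0.078) and with the replicate number as a block (0.058).

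PIM2, a kinase that promotes growth and survival of lymphocytes, had 1 probe set (1417216_at). At 72 h it measured 471, 491 and 519 with Antagomir-SCR and 408, 405 and 425 with Antagomir-31, and the groups did not overlap. The means were 493 ± 24.4 and 413 ± 11.0 (SD, n = 3 each). The log2 difference was -0.26 (SE 0.057, 95% interval -0.38 to -0.13), with an adjusted p of 0.057, past the threshold in 3 of 22 other settings, among them the one without Antagomir-31 72h replicate 4 (0.044).

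PIM1, the founding member of the kinase family, had 2 probe sets. Probe set 1423006_at measured 566, 570 and 653 with Antagomir-SCR and 449, 497 and 610 with Antagomir-31, so the highest array with Antagomir-31 lay within the control range (log2 difference -0.21, SE 0.11, adjusted p 0.33). Probe set 1435458_at measured 1119 ± 35.5 and 1089 ± 41.2 (SD, n = 3 each), with overlapping groups and a log2 difference of -0.039 (95% interval -0.14 to 0.065).

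**Figure D1:**
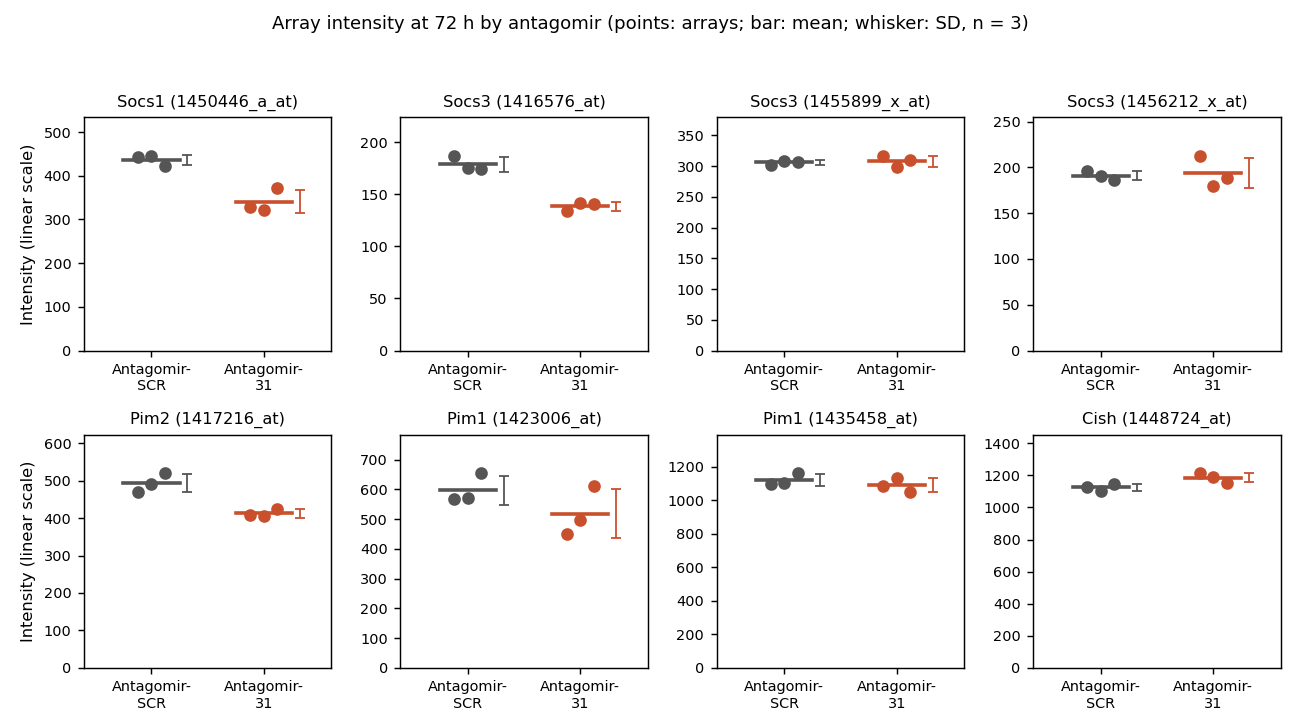
Array intensities at 72 h on a linear axis from 0 for 8 probe sets of Socs1, Socs3, Pim2, Pim1 and Cish, with Antagomir-SCR in grey and Antagomir-31 in orange (points: arrays; bar: mean; whisker: SD, n = 3). The arrays of Socs1, Socs3 1416576_at and Pim2 lie lower with Antagomir-31 and do not overlap, the other 2 Socs3 probe sets overlap, and Cish lies slightly higher with Antagomir-31.

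CIS, an inhibitor that binds activated cytokine receptors and is induced by STAT5, had 1 probe set (1448724_at). At 72 h it measured 1128, 1106 and 1149 with Antagomir-SCR and 1212, 1190 and 1155 with Antagomir-31. The groups were just apart, with a log2 difference of 0.072 (95% interval -0.043 to 0.19, adjusted p 0.50). SOCS5, described as an inhibitor of IL-4 receptor signals, was apart in the same direction for its brighter probe set 1423350_at, with 104, 107 and 103 under Antagomir-SCR and 115, 126 and 113 under Antagomir-31 (log2 difference 0.17, SE 0.063, adjusted p 0.19). The dimmer Socs5 1423349_at had the opposite sign and overlapped (-0.076, 95% interval -0.28 to 0.12).

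SOCS2, best known as a brake on growth hormone signals, measured 2842, 2822 and 2957 with Antagomir-SCR and 2745, 2678 and 2928 with Antagomir-31 on 1449109_at at 72 h. These groups overlapped, with a log2 difference of -0.047 (95% interval -0.20 to 0.11), and the second bright probe set 1418507_s_at differed by 0.0014 (95% interval -0.16 to 0.17). Of the dim Socs2 probe sets 1442586_at was lower on all 3 arrays (46.3 ± 0.381 against 49.5 ± 1.51) and 1446085_at overlapped, with log2 differences of -0.098 and 0.15 and no call. SOCS6, an adaptor for receptor tyrosine kinases, measured 127 ± 0.832 with Antagomir-31 and 133 ± 6.51 with Antagomir-SCR on 1450129_a_at (log2 difference -0.064, 95% interval -0.18 to 0.048).

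In all, the treatments did not overlap at 72 h for 4 of the 15 probe sets in the lower direction (Socs1, Socs3 1416576_at, Pim2 and Socs2 1442586_at) and for 2 in the higher direction (Cish and Socs5 1423350_at). Of all probe sets tested, 14.9% were apart and lower and 9.43% apart and higher. The 4 dim probe sets below the filter showed mean intensities of 12.7 to 36.7 at 72 h and were not tested.

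At 36 h 0 of the 15 probe sets and 2 of 17590 (0.0114%) were called by limma, and at 48 h 0 of 15 and 0 of 17590 (0%). An unadjusted p under 0.05 was reached by 1 member probe set at 36 h (862 over the table) and by 2 at 48 h (1065 over the table). At both times the probe set concerned was Socs3 1455899_x_at, which at 36 h measured 377 and 407 with Antagomir-SCR and 469 and 436 with Antagomir-31, and at 48 h 303 and 319 against 384 and 325. Its log2 differences were 0.21 and 0.18 (adjusted p 0.92 and 0.79). The other Socs3 probe sets gave 0.18 and 0.079 (1456212_x_at) and 0.094 and -0.039 (1416576_at). The other at 48 h was Pim2, with 97.3 and 96.8 under Antagomir-SCR and 105 and 117 under Antagomir-31 (log2 difference 0.19, 95% interval 0.037 to 0.34, adjusted p 0.75), a sign opposite to that at 72 h. Socs1 measured 118 and 125 against 140 and 122 at 36 h and 109 and 124 against 120 and 122 at 48 h, and the treatments overlapped at both times. For Socs3 1416576_at the values were 122 and 141 against 140 and 140 at 36 h, and 111 and 114 against 109 and 110 at 48 h. With 2 arrays per group the median SE of a difference over all probe sets was 0.075 at these times and 0.062 at 72 h.

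Averaged over the 3 times, 0 of 15 member probe sets and 3 of 17590 (0.0171%) were called. An unadjusted p under 0.05 was reached by 2 members (1629 over the table), both of them Socs3 probe sets of opposite sign, 1455899_x_at at 0.13 and 1416576_at at -0.10 (adjusted p 0.35 and 0.41).

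**Figure D2:**
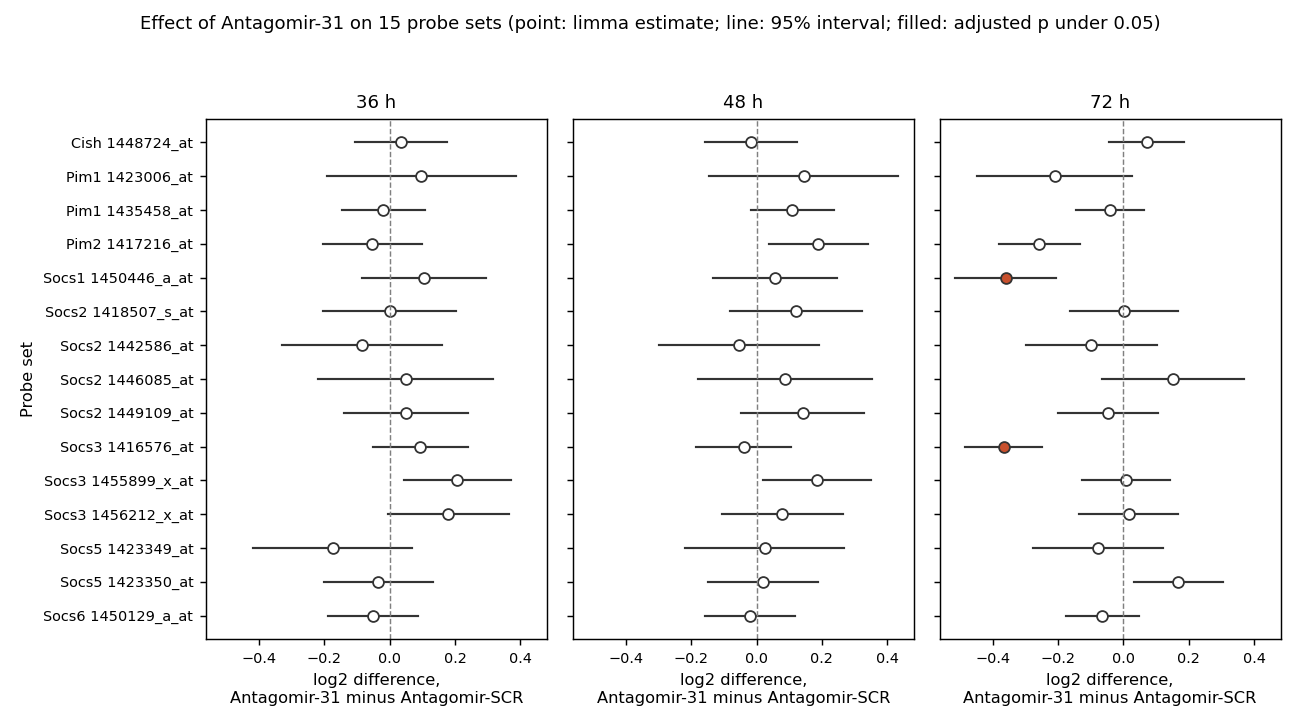
Log2 difference of Antagomir-31 minus Antagomir-SCR (x axis) for the 15 tested probe sets at 36, 48 and 72 h, with the limma estimate as a point and the 95% interval as a line; filled points have an adjusted p under 0.05. Only Socs1 and Socs3 1416576_at at 72 h are filled, Pim2 lies to the left of 0 at 72 h and to the right at 48 h, and most other intervals include 0.

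Whether the effect at 72 h differed from the earlier ones was tested directly. For 72 h minus 36 h limma called 0 of 15 member probe sets and 1 of 17590 (0.00569%), and for 72 h minus 48 h 0 of 15 and 3 of 17590 (0.0171%). An unadjusted p under 0.05 was reached by the same 3 probe sets both times, Socs1, Socs3 1416576_at and Pim2, against 1985 and 1731 in the table. Their differences in effect from 36 h were -0.47, -0.46 and -0.20 (adjusted p 0.23, 0.13 and 0.43). From 48 h they were -0.42, -0.33 and -0.45 (adjusted p 0.31, 0.30 and 0.16). Both differences share the 72 h arrays. A change of the effect with time was therefore not called for any member.

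Levels over time moved far more than levels between treatments. To set the times on a common scale the arrays were quantile-normalized, since those of 1 time seem to have been normalized apart from the rest. Time cannot be told apart from the run of the arrays or from that normalization. Between 48 and 72 h limma called 13457 of 17590 probe sets (76.5%), 7160 higher (40.7%) and 6297 lower (35.8%). On the values as deposited, where the median probe set was 0.35 higher at 72 h on the log2 scale, the split was 12636 and 2573. Of the 15 member probe sets 9 were higher and 4 lower (12 and 2 on the values as deposited). The 9 include 4 probe sets of Socs2. Among these is the dim 1442586_at, which passed the filter only through the 72 h arrays, so that its direction was set beforehand. The median of the members fell on this probe set and is therefore not compared with the 0.027 over the table. The members next to it in order were Socs5 1423350_at at 0.49 and Socs3 1416576_at at 0.13.

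The folds here are of quantile-normalized values, while the intensities printed beside them are as deposited and do not give the same fold. Pim2 had the largest rise among the members, by 1.79 on the log2 scale (SE 0.046) or 3.47-fold. Its deposited intensities were 96.8 to 117 on the 4 arrays at 48 h and 405 to 519 on the 6 at 72 h. Socs1 rose 2.57-fold (log2 difference 1.36, SE 0.052), with deposited intensities of 109 to 124 at 48 h and 321 to 445 at 72 h. In both genes the 72 h arrays with Antagomir-31 lay between the 48 h arrays and the 72 h controls. Socs2 rose 2.72-fold on 1418507_s_at, 1.95-fold on 1449109_at and 1.56-fold on the dimmer 1446085_at. The dimmest, 1442586_at, lay below the level of the filter at 48 h (group means 26.8 and 27.9) and passed it through the 72 h arrays (46.3 and 49.5), so its call had to be in this direction and no fold is given. Pim1 rose 1.42-fold on 1423006_at (log2 difference 0.51), while 1435458_at gave -0.059 and no call. Socs5 1423350_at rose 1.40-fold and 1423349_at gave 0.083 with no call.

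Cish went the other way. Its deposited intensities were 1183 to 1299 on the 4 arrays at 48 h and 1106 to 1212 on the 6 at 72 h. After quantile normalization Cish fell by 0.36 on the log2 scale (SE 0.044). Socs3 again split by probe set, with falls of 0.44 on 1455899_x_at and 0.27 on 1456212_x_at and a rise of 0.13 on 1416576_at. Socs6 fell by 0.27. On the values as deposited Cish (-0.11) and Socs3 1455899_x_at (-0.11) kept their direction and call, and Socs6 (0.10), Socs3 1456212_x_at (0.095) and Pim1 1435458_at (0.19) had the opposite sign. On those values Pim1 1435458_at and Socs5 1423349_at (0.45, adjusted p 6.4e-05 in limma) were called higher. With median centring Pim1 1435458_at was called lower (-0.16).

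Between 36 and 48 h limma called 7422 probe sets (42.2%), 3775 higher (21.5%) and 3647 lower (20.7%), and on the values as deposited 2803 and 5315. Here 2 member probe sets were higher and 5 lower (1 and 6 on the values as deposited). All 3 probe sets of Socs3 fell, by 0.26 (1416576_at), 0.29 (1455899_x_at) and 0.69 (1456212_x_at). Cish fell by 0.26, with deposited intensities of 1510 to 1664 on the 4 arrays at 36 h. Socs5 1423350_at fell by 0.34. Socs6 rose by 0.16. The dim Socs2 1442586_at was called higher (0.25), with group means of 23.8 and 25.2 at 36 h and 26.8 and 27.9 at 48 h, where the arrays of the times overlapped and lay below the level of the filter. The Socs6 call was lost without Antagomir-31 36h replicate 2 (adjusted p 0.052) or Antagomir-SCR 48h replicate 1 (adjusted p 0.055). That of Socs2 was lost without Antagomir-31 36h replicate 1, Antagomir-SCR 36h replicate 2, Antagomir-31 48h replicate 1 or Antagomir-SCR 48h replicate 1 (adjusted p 0.11, 0.11, 0.11 and 0.12), on the values as deposited (0.11) and with the groups compared alone (0.081). Pim1, Pim2 and Socs1 gave log2 differences between -0.051 and 0.067 and no call. The steps from 36 to 48 h and from 48 to 72 h share the 48 h arrays.

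**Figure D3:**
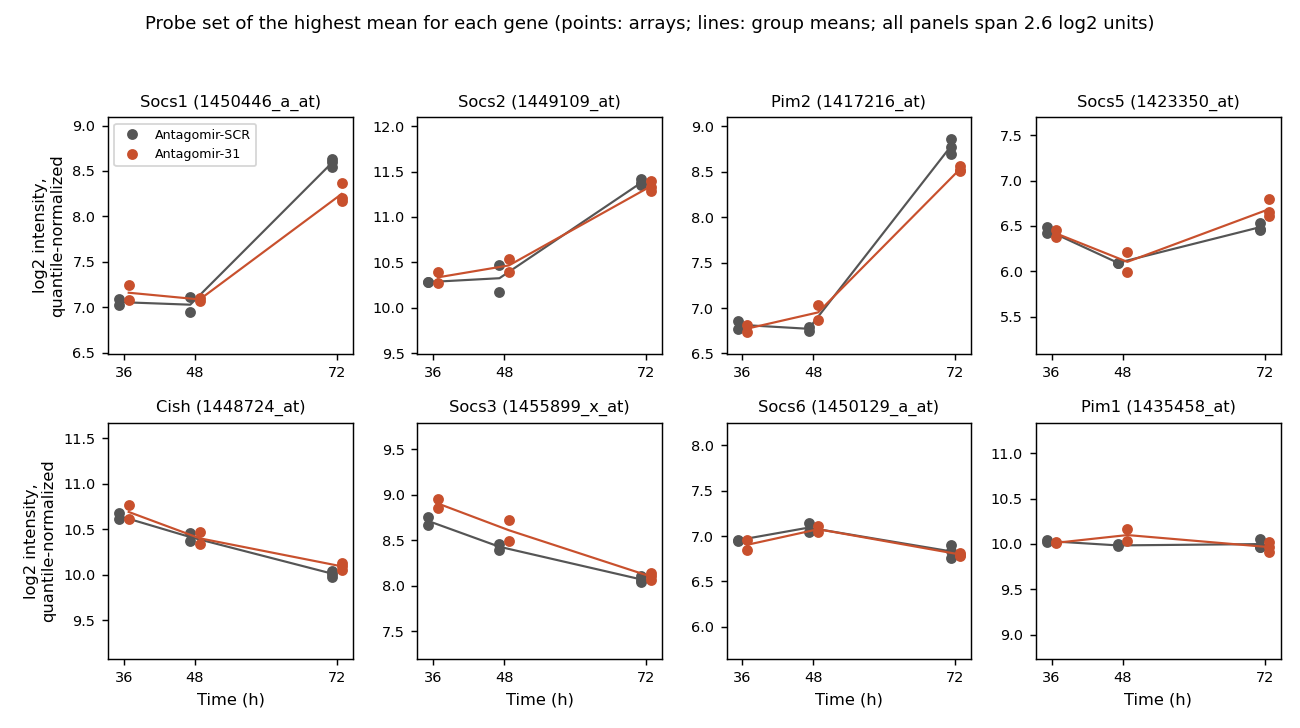
Quantile-normalized log2 intensity (y axis) against time after treatment in hours (x axis) for the probe set of the highest mean of each of the 8 genes, with arrays as points and group means joined by lines (Antagomir-SCR grey, Antagomir-31 orange). Socs1, Socs2 and Pim2 rise between 48 and 72 h, Cish and Socs3 1455899_x_at fall over the 3 times, and Socs5 dips at 48 h.

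Ordered by quantile-normalized level, the 2 groups at 72 h were the highest for Socs1, Socs2, Socs5 and Pim2 and the lowest for Cish, Socs3 and Socs6 (probe sets of the highest mean). On the values as deposited the 72 h groups of Socs6 were instead the highest (127 and 133, against 109 to 122 in the earlier groups). For Socs1 the Antagomir-31 group at 72 h (log2 8.25) was apart from the controls at 72 h (8.59) and from the nearest earlier group (7.16), while the 4 earlier groups overlapped with their neighbours. For Pim2 both 72 h groups (8.53 and 8.78) were likewise apart, and Antagomir-31 at 48 h (6.95) was apart from the group below it. For Cish the order ran from the controls at 72 h (10.01) over Antagomir-31 at 72 h (10.09) to the 48 h and 36 h groups, where the treatments overlapped. For Pim1 1435458_at neighbours in the order mostly overlapped, with all groups between 9.96 and 10.1.

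Across the 14 arrays, which share time and run, Pim2 correlated with Socs1 (Pearson r = 0.99) and Socs2 (r = 0.98), and Cish with Socs3 1455899_x_at (r = 0.96). Cish and Pim2 ran against each other (r = -0.92). These values describe the shared course over time. By the same measure, the probe sets of other genes most like Pim2 were those of Akt1, Casp6 and Dcxr (r = 0.997, 0.996 and 0.996), and those most like Socs1 were Tcf3, Slc2a1 and Fermt3 (r = 0.996, 0.995 and 0.994). For Socs2 they were Rnf185, Laptm5 and Lpp (all r = 0.99), for Cish Mier3, Rrbp1 and Fut11 (0.99, 0.99 and 0.98), and for Socs3 Cd247, Ier5 and Smad7 (all r = 0.97). Socs5 (Rrs1, Sumf1 and Dido1, r = 0.96 each), Socs6 (Nfkbil1, Snap23 and Pls3, r = 0.95 each) and Pim1 (Cln8, Mphosph10 and Idnk, r = 0.80, 0.77 and 0.76) had looser partners.

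The ligands upstream of the members were taken from a list of 19 cytokines that signal through JAK and STAT, with 12 probe sets of 11 genes tested. At 72 h 2 of 12 were lower with Antagomir-31 and 0 higher (0.551% and 0.313% over the table). An unadjusted p under 0.05 was reached by 8, against 3234 of 17590 over the table, the base for every list below. The median log2 difference was -0.19 against -0.013 over the table. Lif, an IL-6 family cytokine that signals through gp130 and STAT3, measured 225 to 248 on the 3 control arrays and 137 to 151 on the 3 with Antagomir-31 (1421207_at), and fell by 0.73 (SE 0.062, adjusted p 8.8e-04). Il24, an IL-10 family cytokine, measured 362 to 444 and 245 to 297 and fell by 0.61 (SE 0.11, adjusted p 0.032). The call of Lif 1421207_at held in 22 of 22 alternatives that kept single probe sets, while the dimmer Lif 1450160_at was called in 0 of 21 (49.9 to 53.8 with Antagomir-31, 55.8 to 76.2 on the controls). That of Il24 held in 16 of 22 and was lost without Antagomir-31 72h replicate 2 or 3 (adjusted p 0.15 and 0.0999) or Antagomir-SCR 72h replicate 3 or 4 (0.10 and 0.077), with no filter (0.088) and with the 72 h arrays alone (0.099). Il21, a product of activated T cells that signals through STAT3, gave -0.29 (adjusted p 0.060). Over time these genes moved widely. Il3 stood at 11223 to 12192 on the 48 h arrays and at 14.8 to 21.6 at 72 h. Csf2 stood at 5290 to 6654 and then at 65.5 to 85.9. Ifng fell by 1.07 and Il21 by 1.50 on the log2 scale. Of 12 cytokine probe sets 9 were lower and 2 higher at 72 h than at 48 h (35.8% and 40.7% over the table), and 7 and 4 on the values as deposited. The 9 include Il3, which lay below the level of the filter at 72 h and passed it through the earlier arrays. Its direction was therefore set beforehand. The culture methods of the study describe a transfer off the stimulus at 48 h unless stated otherwise, and it is not stated whether this applied to the array cultures.

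Of 25 tested probe sets of receptor chains (median -0.028), 11 had an unadjusted p under 0.05 at 72 h, against 3234 of 17590 over the table. Of the 25, 1 was lower with Antagomir-31 and 0 higher (0.551% and 0.313% over the table). It was that of Il10ra, the ligand-binding chain of the IL-10 receptor, at 55.3 to 58.7 on the control arrays and 39.9 to 47.7 with Antagomir-31 (log2 difference -0.35, adjusted p 0.048), a call that held in 4 of 21 alternatives (adjusted p 0.032 to 0.17, and 0.058 with the replicate number as a block) and, among those leaving out 1 array, only without Antagomir-31 72h replicate 4. Between 48 and 72 h 13 of the 25 receptor probe sets were higher and 8 lower (40.7% and 35.8% over the table), and 19 and 2 on the values as deposited. The IL-2 receptor chains Il2ra, which raises affinity, and Il2rb, which signals, rose 2.03-fold and 2.26-fold, and the interferon receptor chain Ifnar1 fell by 1.12 on the log2 scale.

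Among 19 probe sets of JAK kinases and STAT factors 0 were called at 72 h, and the median was -0.11. An unadjusted p under 0.05 was reached by 7, against 3234 of 17590 over the table. The smallest p belonged to Jak3, the kinase of the common γ chain (-0.26, adjusted p 0.081), Stat3 (-0.19, adjusted p 0.088), Stat5a (-0.54, SE 0.16, adjusted p 0.11) and Stat6 (-0.16, adjusted p 0.15). Over time Jak3 rose 2.04-fold from 48 to 72 h. Stat4, the IL-12 responsive factor of Th1 cells, fell by 2.43, and Jak2 by 1.72 and 1.37 on its 2 most significant probe sets. In total 3 of 19 were higher and 10 lower (40.7% and 35.8% over the table), which turned to 10 higher and 5 lower on the values as deposited.

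Other inhibitors of the pathway (Socs4, Socs7, Pim3, the PIAS proteins, phosphatases, Cbl proteins, Sh2b3 and Usp18) gave 0 calls in 36 probe sets at 72 h, with 8 at an unadjusted p under 0.05 and a median of -0.014. Between 48 and 72 h 9 of the 36 rose and 19 fell (40.7% and 35.8% over the table), and 20 and 11 on the values as deposited. Pim3, the remaining PIM kinase, fell by 1.24, opposite to Pim2. It was read by 1437100_x_at, whose suffix marks probes able to bind other transcripts too. The phosphatase gene Ptpn6 fell by 1.18. Usp18 and Sh2b3 passed the filter only through times at which they were high, and no fold is given for them. The 9 that rose include Usp18 and the 19 that fell include Sh2b3, with directions set beforehand. Usp18, an inhibitor of type I interferon signals, stood at 16.4 to 21.5 at 48 h and at 209 to 276 at 72 h, and Sh2b3, an adaptor that restrains JAK2, at 47.0 to 53.9 and then at 23.1 to 25.5. The subunits of the SOCS box ubiquitin ligase (21 probe sets) gave 0 calls at 72 h, with 3 at an unadjusted p under 0.05. With time 10 of the 21 rose and 9 fell (40.7% and 35.8% over the table), and 14 and 4 on the values as deposited. Among them were falls of Cul5 (-1.03) and Eloc (-0.82 and -0.73) and a rise of Nedd8 1423715_a_at (0.27 to 0.62 over 22 alternatives).

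Among 46 probe sets of genes that respond to STAT5 and IL-2 (median -0.029), 17 had an unadjusted p under 0.05 at 72 h. Over the table it was 3234 of 17590. The 46 held 1 higher and 2 lower calls (0.313% and 0.551% over the table). Prdm1, the gene of the repressor Blimp-1, rose by 0.30 (adjusted p 0.028), Lif fell as above, and Tnfrsf18, which encodes the costimulatory receptor GITR, fell by 0.23 (adjusted p 0.048). The call of Prdm1 held in 15 of 22 alternatives and was lost without Antagomir-31 72h replicate 2 or 3 (adjusted p 0.13 and 0.096) or Antagomir-SCR 72h replicate 3 or 4 (0.097 and 0.062), with no filter (0.093), with the 72 h arrays alone (0.099) and with the replicate number as a block (0.069). That of Tnfrsf18 held in 5 of 22 (0.0083 to 0.19, and 0.11 with the replicate number as a block) and, among those leaving out 1 array, only without Antagomir-31 72h replicate 4. Ctla4 gave -0.29 with an adjusted p of 0.051. From 48 to 72 h 22 of these 46 probe sets rose and 16 fell (40.7% and 35.8% over the table), and 32 and 8 on the values as deposited. Myc was 2.07-fold and Prdm1 2.04-fold higher, and perforin (Prf1) was at -2.92 on the log2 scale. Substrates and partners of PIM kinases gave 0 calls in 39 probe sets at 72 h (5 at an unadjusted p under 0.05, median -0.017), where the smallest p was that of Cdkn1b, a cell cycle inhibitor (-0.22, adjusted p 0.067). With time 21 of the 39 rose and 10 fell (30 and 6 on the values as deposited), where 76.5% of the table was called. At 36 and 48 h none of the 7 pathway lists held a call by limma, and each had between 0 and 5 probe sets with an unadjusted p under 0.05.

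All 11 markers of T cells and Th1 cells passed the filter. Their summed intensity at 72 h was 24377 to 24888 on the control arrays and 23499 to 24184 on the treated ones, so it was slightly lower on all 3 arrays with Antagomir-31. The sum of Th2, Th17 and Treg markers (3 of 7 genes below the filter, among them Foxp3 and Il4) was 249 to 280 on the controls and 282 to 294 with Antagomir-31, thus higher on all 3. Of the B cell markers 4 of 6 were below the filter, Cd79a, Cd79b, Ms4a1 and Pax5, with a sum of 163 to 169 on the controls and 164 to 180 with Antagomir-31. Of the myeloid markers 6 of 10 were below it (345 to 357 and 344 to 357), and of the CD8 T and NK cell markers 4 of 5 (113 to 115 and 109 to 113). The 3′ to 5′ ratio of actin control probe sets, a sign of RNA quality, lay on the log2 scale between 0.32 and 0.43 for the arrays of 36 h, 0.37 and 0.41 for those of 48 h, and 0.21 and 0.27 for those of 72 h. At 72 h it was 0.27, 0.26 and 0.21 with Antagomir-31 (replicates 2, 3 and 4) and 0.24, 0.22 and 0.21 with Antagomir-SCR. The 2 arrays with the lowest Socs1 thus had the highest actin ratios. The ratio of Gapdh was 0.055, 0.088 and 0.020 with Antagomir-31 and 0.057, 0.056 and -0.0052 with Antagomir-SCR, where this order did not hold. For Gapdh the arrays of 36 h (-0.046 to -0.028) and 48 h (-0.024 to -0.012) lay below those of 72 h, opposite to actin. The part of these measures in the differences of Socs1, Socs3 and Pim2 was not tested.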

How the data were processed

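The authors used GCOS to read Affymetrix mouse GeneChips and RMA in the affy package for normalization (versions not given in the sources used here). What they deposited are linear intensities, which were converted to log2 values here. The array medians lay between 23.4 and 23.8 for 36 h, 21.8 and 22.1 for 48 h, and 27.9 and 28.4 for 72 h, as if each time had been normalized by itself. The number of arrays limits the precision.

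Probe sets with 1 symbol (34945, 18193 genes; 932 had several and 9160 none) and a mean log2 intensity of at least 5 were fitted with limma 3.58.1 in R 4.3.3 over 6 groups and 14 arrays, with Benjamini-Hochberg adjustment over 17590 probe sets and a threshold of 0.05. Time contrasts used quantile-normalized values. Tables were prepared with Python 3.11.15, and the fit was tested on simulated data. Sequences and gene positions are from RefSeq. MAS5 calls were not used.

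The members and gene lists were chosen with earlier results of these data known. Named are all member probe sets, up to 4 members of each list with the smallest p in a contrast, and the 3 probe sets most correlated with each member. Alternatives changed the normalization, centring, filter, probe set summary, variance model, samples and replicate block, and left out each array in turn.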

Additional observations from a re-analysis of the deposited data

How the results depend on the processing

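At 72 h the count of 2 called member probe sets became 1 with median centring, 0 with no filter, 0 with only the groups compared in the fit and 0 with the replicate number as a block. It became 3, Pim2 being added, with the filter at 6 and where the prior variance followed a trend. It ranged from 0 to 3 when each array was left out in turn. With 1 value per gene from the highest probe set the count stayed at 2, where 146 of 10390 genes were called over the table. Here, however, the 2 genes were Socs1 and Pim2, and Socs3 gave 0.0081 (adjusted p 0.96 in limma). Socs3 1416576_at was called in 15 of 22 alternatives that kept single probe sets (adjusted p 0.0070 to 0.12), Socs1 in 9 (0.012 to 0.17) and Pim2 in 3 (0.027 to 0.20), and all 3 stayed negative throughout. Over the whole table the 152 calls ranged from 6 without Antagomir-SCR 72h replicate 3 to 589 where the prior variance followed a trend, and were 13 with no filter, 8 with the 72 h arrays alone, 422 under a filter at 6, 104 with median centring and 564 without Antagomir-31 72h replicate 4. At 36 h, at 48 h, on the average and for both differences of effect the count of members stayed at 0 in the alternatives run. With the highest probe set per gene the time contrasts gave 4 of 8 genes (48 h minus 36 h) and 7 of 8 (72 h minus 48 h). Over the table they gave 4600 and 8107 of 10390 genes. On values as deposited Pim1 1435458_at (0.19 against -0.059), Socs6 1450129_a_at (0.10 against -0.27) and Socs3 1456212_x_at (0.095 against -0.27) reversed between 48 and 72 h, where the median of all probe sets moved by 0.35.

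The deviations of samples of the same replicate number correlated weakly (r = 0.075 at 36 h, -0.18 at 48 h, and -0.018, -0.013 and 0.15 at 72 h). Samples of different numbers gave -0.089 to 0.11 at 72 h. With 2 or 3 arrays per group these values cannot decide whether the numbers pair the samples. With the replicate block 39 probe sets over the table were called at 72 h, against 152 without it, and 0 members. With the numbers crossed at 48 h, a setting chosen after seeing the data, 0 probe sets and 0 members were called.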
